A study of Mus musculus with 2 samples.

Results

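Enzymes that conjugate, oxidise or reduce foreign and body-made small molecules were examined in epidermal keratinocytes of mice, as probe signals on 2 Illumina bead arrays. The set was defined by gene symbol, with earlier results of these data known. It took in glutathione S-transferases (GST), UDP-glucuronosyltransferases (UGT) of families UGT1, UGT2 and UGT3, and sulfotransferases (SULT). Also taken were aldehyde dehydrogenases (ALDH), aldo-keto reductases of family AKR1, and quinone reductases (NQO). The set held 103 of the 25697 probes and 72 of the 18120 genes named on the array. The classes contributed 20 GST, 9 UGT, 10 SULT, 17 ALDH, 13 AKR1 and 3 NQO genes, and for a gene with several probes the brightest on average was taken.

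The array labelled knockout held RNA from mice with floxed Vdr alleles (VDR fl/fl), the gene of the vitamin D receptor, that also carried a Cre recombinase under the keratin 14 promoter. The control array held RNA from littermates with the same floxed alleles and no Cre. In both groups the mice were 3 months old and ate a diet low in calcium, chosen to limit compensation. Trypsin at 0.25% was used for both groups, and each array was a pool of keratinocyte RNA from 3 mice. Keratin 14 is made by basal keratinocytes and outer follicle cells, so the Cre acts in those cells and their descendants, while other cell types of the epidermis keep the receptor gene. The labels do not give the sex of the mice.

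With 1 array per group there was no spread between replicates, no test was possible, and every difference below describes these 2 pools alone. The keratinocyte markers Krt14, Krt5, Krt10, Krt1 and Trp63 were all detected, with log2 differences between -0.28 and 0.16. Vdr itself had a normalized signal of 2928.3 on the array labelled knockout and 2626.3 on the control array, so it gave no support for the label. The deleted exon is not given in the sources used here, and a probe outside it would check nothing. Xist was 2.22-fold higher and the Y-linked Ddx3y 7.87-fold lower on the array labelled knockout. The proportion of male and female mice therefore appeared to differ between the pools, and sex and genotype cannot be told apart in any result.

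These enzymes deal with reactive and lipid-soluble molecules in a few chemical steps. ALDH and AKR1 enzymes oxidise or reduce carbonyl groups, NQO enzymes reduce quinones, and GST, UGT and SULT enzymes attach glutathione, a sugar acid or sulfate, which makes the product soluble or alters its activity. In skin they act on plant and industrial chemicals, on aldehydes from lipid peroxidation, and on retinoids, steroids and cholesterol. Several GST and NQO genes are known targets of NRF2, a transcription factor released from its inhibitor KEAP1 by oxidants, which binds antioxidant response elements.

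Few of the enzyme genes differed between the arrays. In all, 44 of the 72 genes were detected, 40 on both arrays and 4 on the array labelled knockout alone, where detected means a signal rank equivalent to a detection p under 0.05. Of these 44, Akr1c18 and Sult1a1 (2 genes) were higher by 2-fold or more on the array labelled knockout, and 0 were at least 2-fold lower. Among all 9540 detected genes, 1.28% were at least 2-fold higher and 1.11% at least 2-fold lower, beside 4.55% of the detected members at least 2-fold higher, a share that rests on 2 genes. At 1.5-fold, 4 members (9.09%) were higher and 1 (2.27%) lower, against 4.98% and 4.11% of all detected genes. The median log2 difference was -0.04 over the members and -0.00 over all detected genes, and the median absolute difference over genes detected on both arrays was 0.21 for the members and 0.17 for all genes.

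**Figure D1:**
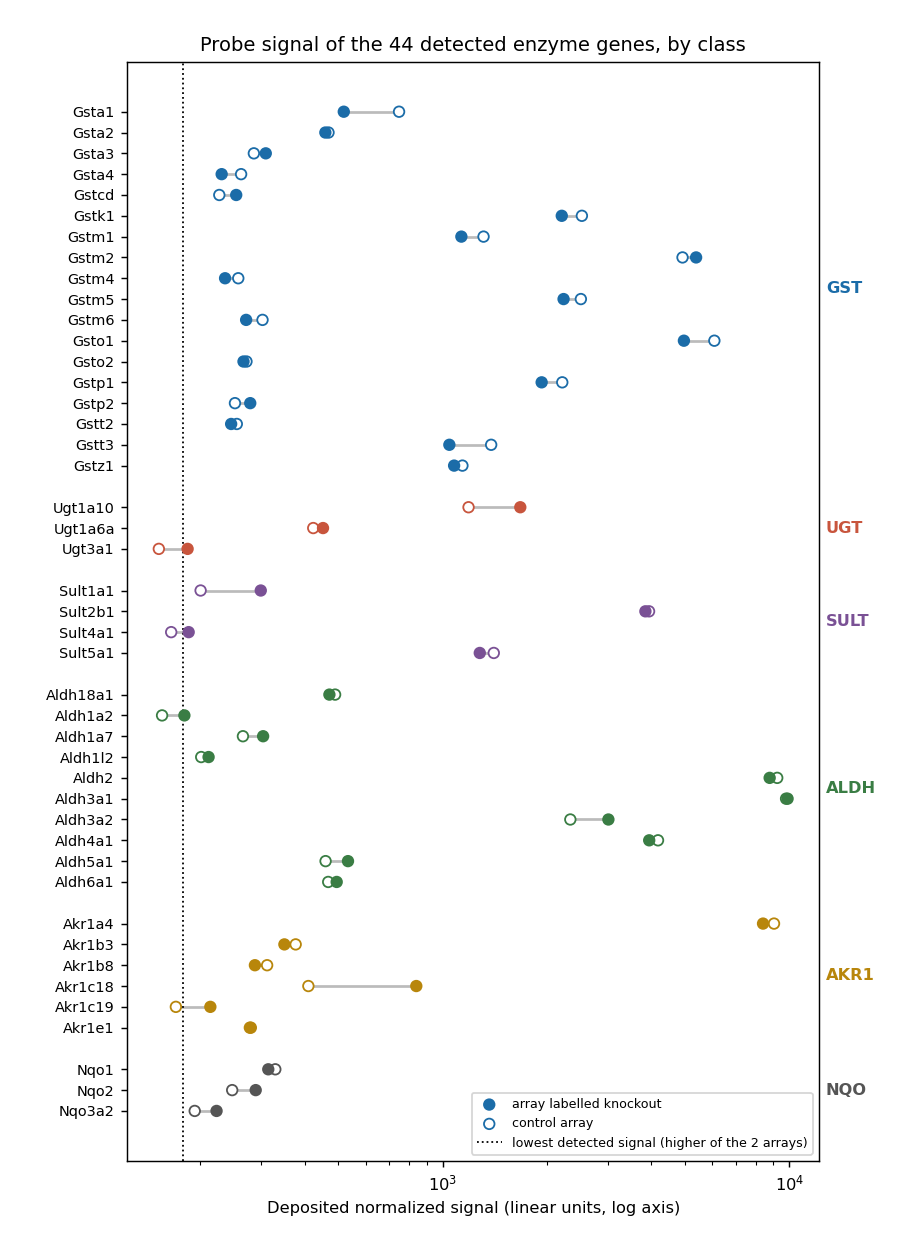
Deposited normalized signal (linear units on a log axis) of the probe chosen for each of the 44 detected genes, grouped by class. Filled points are the array labelled knockout and open points the control array, with 1 array each, and the dotted line is the lowest signal counted as detected. Most pairs nearly coincide, while Akr1c18, Sult1a1 and Ugt1a10 lie to the right on the array labelled knockout and Gsta1 and Gstt3 to the left.

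Signals are given as deposited after normalization, in linear units that still contain the background. Fold changes and log2 differences (array labelled knockout minus control) were computed after a background model was removed, which widens the differences of dim probes, and the ratio of the deposited signals is given where the gap matters. Signals of different probes have no common scale, so levels are not compared between genes.

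GST genes were slightly lower on the array labelled knockout as a class. Of 20 genes 18 were detected, all on both arrays, and 14 of these were lower and 4 higher, while 50.9% of all 8393 genes detected on both arrays were lower and 48.8% higher. The class median was -0.19, and 0 of the 18 reached 2-fold. The shift was small for single genes, since 15 of the 18 lay between the 10th and 90th percentile of all genes detected on both arrays (-0.37 to 0.40).

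The alpha class, whose enzymes conjugate electrophiles and also reduce lipid hydroperoxides, held the member that was lowest on the array labelled knockout. Gsta1 had a signal of 519.1 on the array labelled knockout against 749.3 on the control array, a log2 difference of -0.77 (1.71-fold lower, and 1.44-fold lower by the deposited signals). Gsta4, which conjugates the lipid aldehyde hydroxynonenal, had 230.7 against 262.5 (log2 -0.42, and 1.14-fold lower by the deposited signals). The close relatives did not share the size of the Gsta1 difference: Gsta2 had 459.3 against 469.0 (log2 -0.05). Gsta3 had 309.2 against 285.7 (log2 0.22). Some copies within the alpha, mu and pi classes are near-identical in sequence. Probe sequences were not analysed here, so for such copies it is uncertain which one a probe measured.

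Promoter sequence is shown for the members with the largest difference in each direction, since the array gives no other sequence for them. Both are the 250 bases before the RefSeq start in build GRCm38.p6, Gsta1 at chr9:78230419-78230668 on the plus strand and Akr1c18, described below, at chr13:4150647-4150896 on the minus strand, each written 5′ to 3′ in the direction of the gene.
Gsta1: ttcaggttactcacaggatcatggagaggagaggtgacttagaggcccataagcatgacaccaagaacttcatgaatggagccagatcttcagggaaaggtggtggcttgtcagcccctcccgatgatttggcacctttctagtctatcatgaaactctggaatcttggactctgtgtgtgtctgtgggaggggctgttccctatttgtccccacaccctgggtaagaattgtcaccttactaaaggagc
Akr1c18: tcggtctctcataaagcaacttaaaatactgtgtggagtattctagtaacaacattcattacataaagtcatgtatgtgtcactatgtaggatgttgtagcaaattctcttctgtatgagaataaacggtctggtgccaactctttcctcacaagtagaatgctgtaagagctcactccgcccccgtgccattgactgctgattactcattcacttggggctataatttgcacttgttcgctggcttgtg
Both strands were searched for the core of the antioxidant response element (TGACNNNGC), the core of the aryl hydrocarbon response element (GCGTG) and the receptor half-sites AGGTCA and GGTTCA, the last 2 added after the data were seen. None of the 4 motifs occurred in these windows or in those of Akr1c19, Sult1a1 and Ugt1a10, the other members past 1.5-fold, so no base is in capitals. Of all 32851 promoter windows of this length, 10.2% held TGACNNNGC, 28.2% GCGTG, 14% AGGTCA and 8.85% GGTTCA.

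Promoter windows were available for 62 of the 72 members, as 75 windows, of which 48 belonged to detected genes. TGACNNNGC occurred in 3 of those 48 windows, and these are shown with 10 bases on either side and the motif in capitals, all on the plus strand of GRCm38.p6. They lie at chr1:21240454-21240482 for Gsta3, chr3:107895802-107895830 for Gstm5 and chr9:71215667-71215695 for Aldh1a2, with the motif starting 121, 42 and 112 bases before the start of the gene.
Gsta3: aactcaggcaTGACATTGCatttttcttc
Gstm5: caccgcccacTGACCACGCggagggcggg
Aldh1a2: gccgcggactTGACCGTGCgggcgccgcg
Of the genes that carry the motif, Gsta3 and Gstm5 differed little between the arrays, with log2 differences of 0.22 and -0.17. Aldh1a2 was detected on the array labelled knockout alone. Its value of at least 1.02-fold higher is a lower bound, which does not give the size of its difference. GCGTG occurred in 15 of the 48 windows, AGGTCA in 3 and GGTTCA in 5.

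The mu class, encoded by a gene cluster on chromosome 3, had 5 of 6 genes detected, 4 lower and 1 higher. Gstm2 was the exception, with 5387.2 on the array labelled knockout against 4922.8 on the control array (log2 0.15), and all 3 of its probes were higher, by 0.15 to 0.22. Gstm1 had 1133.4 against 1313.2 (log2 -0.26), although a dimmer probe, detected on the array labelled knockout alone, was higher there (187.2 against 171.9). Gstm5 had 2234.3 against 2506.2 (log2 -0.17). The direction of Gstm6 depended on the probe, since its brighter probe had a difference of -0.32 and its other probe one of 0.32. Gstm4 was at -0.29, and Gstm3 was not detected.

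Among the remaining GST genes, Gstt3 of the theta class had 1046.4 on the array labelled knockout against 1381.4 on the control array (log2 -0.50, 1.41-fold lower), while its neighbour Gstt2 had a difference of -0.12 and Gstt1, which lies between them on chromosome 10, was not detected. Gsto1 of the omega class, which reduces dehydroascorbate and mixed disulfides, had 4968.2 against 6081.7 (log2 -0.31), and Gsto2 was at -0.06. Both were lower, by 1.24-fold and 1.04-fold. The pi class gene Gstp1 had 1931.7 against 2215.0 (log2 -0.21), with a second detected probe at -0.11. Gstp2, its near-identical neighbour on chromosome 19, was at 0.31, so the pi class had no common direction. Gstk1, which acts in mitochondria and peroxisomes, had 2207.7 against 2523.3 (log2 -0.20). Gstz1, an isomerase of tyrosine breakdown, was at -0.10. Gstcd, which encodes a protein with a GST-like domain, had 254.1 on the array labelled knockout against 227.1 on the control array (log2 0.38). Gstcd was thus 1.30-fold higher, and 1.12-fold by the deposited signals.

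**Figure D2:**
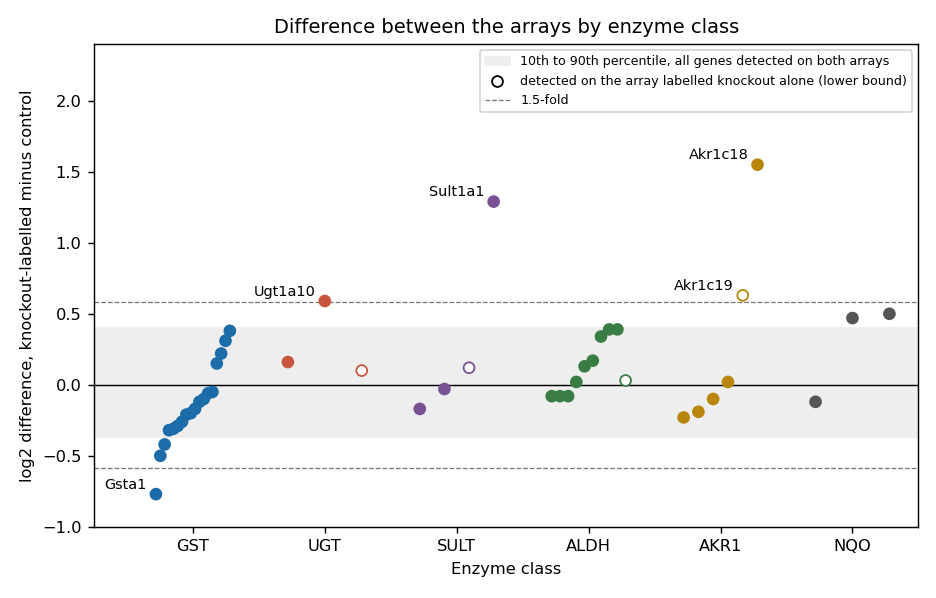
Log2 difference (array labelled knockout minus control, after background removal) for each detected gene, by enzyme class. Filled points were detected on both arrays, open points are lower bounds for genes detected on the array labelled knockout alone, the grey band spans the 10th to 90th percentile of all genes detected on both arrays, and dashed lines mark 1.5-fold. GST points lie mostly below 0, and the members outside the dashed lines are Akr1c18, Sult1a1, Akr1c19, Ugt1a10 and Gsta1.

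AKR1 genes held the largest difference of the whole set. Akr1c18, the hydroxysteroid dehydrogenase that inactivates progesterone in mice, had a signal of 840.2 on the array labelled knockout against 410.3 on the control array. This was a log2 difference of 1.55 (2.93-fold higher), and the deposited signals gave 2.05-fold. It was the only member at least 2-fold apart in the deposited values as well, where 0.283% of all detected genes were at least 2-fold higher. Akr1c19 lies in the same cluster on chromosome 13, with 1 coding gene between them, and was detected on the array labelled knockout alone, at 214.0 against 170.2 (at least 1.55-fold higher, and 1.26-fold by the deposited signals). Akr1c12, Akr1c14, Akr1c6, Akr1c20 and Akr1c21 of the same cluster were not detected on either array, so 2 of 7 AKR1C genes on the array gave a value.

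The other AKR1 genes differed little. Akr1a4 (current symbol Akr1a1), the aldehyde reductase, had 8402.5 on the array labelled knockout against 9037.8 on the control array (log2 -0.10), and its 3 probes were all lower, by 0.10 to 0.32 on the log2 scale. Akr1b3, which encodes aldose reductase, had 349.9 against 377.1 (log2 -0.19). Its neighbour Akr1b8 had 287.7 against 312.0 (log2 -0.23). All 3 detected AKR1A and AKR1B genes of the set were thus slightly lower, each by less than 1.2-fold by its chosen probe. Another Akr1a4 probe was 1.25-fold lower. Akr1e1, an anhydrofructose reductase at the end of the chromosome 13 cluster, had 280.0 against 278.2 (log2 0.02). Akr1b7 and Akr1d1 were not detected.

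SULT genes were mostly not detected, and Sult1a1 was the one that stood out. Sult1a1, the main sulfotransferase for phenols, had 299.1 on the array labelled knockout against 200.6 on the control array, a log2 difference of 1.29 (2.44-fold higher). Both signals were near background, and the deposited signals gave 1.49-fold. Its value therefore depended on the background model more than that of any other detected member with a difference at 1.5-fold or more, and among the dimmest of 3 equal groups of genes by signal, 1.93% were at least 2-fold higher.

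Sult2b1, which sulfates cholesterol and pregnenolone and is known for making cholesterol sulfate in the outer epidermis, had 3847.0 on the array labelled knockout against 3941.5 on the control array (log2 -0.03). Its 2 dimmer probes gave 1243.0 against 1776.6 (log2 -0.60) and 449.9 against 527.1 (log2 -0.37), so the gene had the same direction by all 3 probes and very unequal sizes. Sult5a1 had 1280.7 against 1405.6 (log2 -0.17), and its other probe was at 0.02. Sult4a1, known from brain, was detected on the array labelled knockout alone, at 185.3 against 165.0 (at least 1.09-fold higher). Sult1b1, Sult1c1, Sult1c2, Sult1d1, Sult1e1 and Sult3a1 were not detected.

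UGT genes on the array had 3 of 9 members detected, of which the 2 detected on both arrays were higher on the array labelled knockout. Ugt1a10 had 1676.1 on the array labelled knockout against 1188.7 on the control array, a log2 difference of 0.59 (1.5-fold, and 1.41-fold by the deposited signals), and in the brightest of these 3 groups 2.18% of genes were at least 1.5-fold higher. Ugt1a6a had 452.2 against 423.8 (log2 0.16), with all 3 of its probes higher, by 0.12 to 0.21. Transcripts of the Ugt1a locus on chromosome 1 have a first exon of their own and share the later exons, so a probe in the shared part would measure them together, and where the probes lie was not analysed here. Ugt3a1, whose human counterpart transfers N-acetylglucosamine, was detected on the array labelled knockout alone, at 184.0 against 152.0 (at least 1.07-fold higher). Ugt1a2 and all 5 UGT2 genes (Ugt2a1, Ugt2a2, Ugt2a3, Ugt2b36 and Ugt2b5) were not detected.

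ALDH genes showed no difference of 1.5-fold in either direction. Of 17 genes 10 were detected, and 9 of these on both arrays, of which 6 were higher and 3 lower with a median of 0.13. All 9 lay between the 10th and 90th percentile of all genes. Aldh3a1, known as an abundant protein of the cornea, had 9889.1 on the array labelled knockout against 9792.2 on the control array (log2 0.02). The mitochondrial Aldh2, which oxidises acetaldehyde, had 8780.5 against 9232.1 (log2 -0.08). Aldh3a2 encodes the fatty aldehyde dehydrogenase whose loss in humans causes the scaly skin of Sjögren-Larsson syndrome, and it had 3009.0 against 2336.9 (log2 0.39, 1.31-fold higher). It lies next to Aldh3a1 on chromosome 11, and the pair differed in size.

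Other ALDH genes act in the breakdown and synthesis of amino acids. Aldh4a1, of proline breakdown, had 3945.5 on the array labelled knockout against 4183.2 on the control array (log2 -0.08). Aldh18a1, of proline synthesis, was also at -0.08. Aldh6a1, of valine breakdown, was at 0.13, and Aldh5a1, the succinate semialdehyde dehydrogenase, had 533.8 against 460.0 (log2 0.34, 1.26-fold higher). The mitochondrial folate enzyme gene Aldh1l2 had 211.5 against 201.4 (log2 0.17).

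ALDH1A enzymes are known for converting retinaldehyde to retinoic acid, and Aldh1a2 and Aldh1a1 were at the edge of detection. Aldh1a2 was detected on the array labelled knockout alone, at 180.1 against 155.3 (at least 1.02-fold higher), and its other probe was not detected. Aldh1a1 just missed detection on the control array, with 137.3 on the array labelled knockout against 176.9 on the control array. Its neighbour and close relative Aldh1a7 had 303.8 against 265.7 (log2 0.39, 1.31-fold higher, and 1.14-fold by the deposited signals). Aldh1a3 was not detected. Aldh3b1 was not detected by its chosen probe, although another of its probes was detected on the control array alone (147.0 on the array labelled knockout against 195.2, at least 1.27-fold lower). Aldh1b1, Aldh7a1, Aldh8a1 and Aldh9a1 were not detected.

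NQO genes were all detected on both arrays, and none reached 1.5-fold. Nqo1, the quinone reductase widely used as a readout of NRF2, had 314.4 on the array labelled knockout against 329.4 on the control array (log2 -0.12). Nqo2, a related reductase, had 289.2 against 247.4 (log2 0.47, and 1.17-fold higher by the deposited signals). Its 3 probes were all higher, by 0.07 to 0.47. Nqo3a2 had 223.0 against 192.9 (log2 0.50, and 1.16-fold higher by the deposited signals). Its current symbol is Cyb5r1, so it encodes a cytochrome b5 reductase and belongs to this class only by its older name.

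Several members had more than 1 probe detected on both arrays, which shows how far probes of a gene agreed on the same RNA. The 8 such genes had a median gap of 0.20 (log2) between the differences of their 2 brightest probes, against 0.18 over 2097 genes of the whole array, where the 90th percentile was 0.54. Probes shared a direction in 6 of the 8 members and in 58.3% of the 2097 genes. These gaps come from probes on the same RNA and hold no variation between mice. Akr1c18, Sult1a1 and Gsta1 each rest on a single probe.

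**Figure D3:**
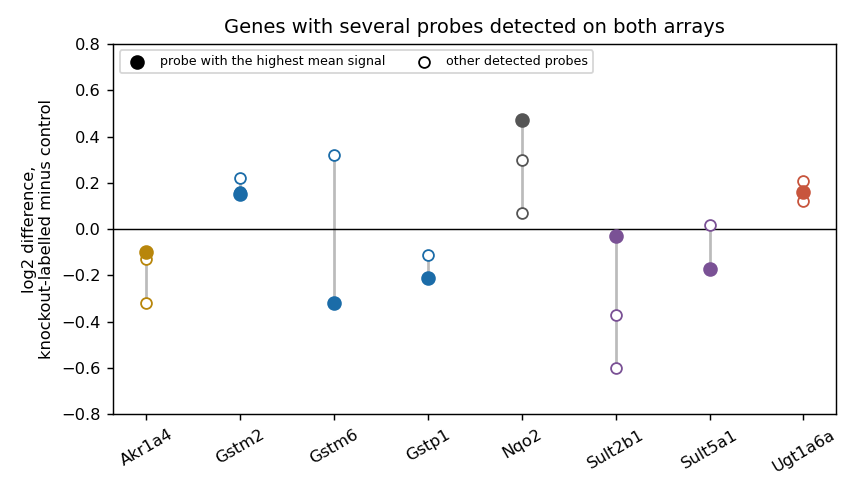
Log2 difference (array labelled knockout minus control) of every probe detected on both arrays, for the 8 genes with more than 1 such probe. Filled points are the probe with the highest mean signal and open points the others. Gstm6 and Sult5a1 have probes on both sides of 0, and the Sult2b1 probes span 0.57.

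Some enzymes of these families carry older names on the array and fell outside the symbol rule. Of 16 such genes 4 were detected, and they were looked up after the rest of the set had been seen. Ugt3a2, listed as AI313915, had 343.3 on the array labelled knockout against 166.0 on the control array, where it was not well above background (at least 4.21-fold higher, and 2.07-fold by the deposited signals). Gstp3, listed as BC021614, had 361.2 against 226.5 (log2 1.38, 2.60-fold higher, and 1.59-fold by the deposited signals). Akr1b10, listed as 2310005E10Rik, was at -0.34 and Aldh16a1, listed as 2410004H02Rik, at -0.29. Thus the largest differences of the UGT3 family and of the pi class came from genes that the rule did not take.

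Related pathways gave little difference as groups. Of 24 NRF2 regulators and targets on the array that were not members, 21 were detected, with 2 at least 1.5-fold higher, 0 lower and a median of -0.04. The 2 were Bach1, a repressor at antioxidant response elements (561.8 on the array labelled knockout against 412.8 on the control array, log2 0.71), and Abcc1, which exports glutathione conjugates (239.8 against 197.5, log2 0.67). By the deposited signals they were 1.36-fold and 1.21-fold higher, so 0 genes of this list reached 1.5-fold there. Osgin1, an oxidant-induced gene, was at 0.54 and Gclc, the catalytic subunit of glutathione synthesis, at -0.43. The factor itself and its inhibitor were nearly equal, with -0.14 for Nfe2l2 and 0.11 for Keap1.

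Of 35 other conjugation and detoxification genes on the array 28 were detected, with 1 at least 1.5-fold higher, 1 lower and a median of -0.15. Mgst1, a membrane-bound GST unrelated in sequence to the GST class above, had 1564.0 on the array labelled knockout against 992.6 on the control array (log2 0.79). Gpx3, the secreted glutathione peroxidase, had 176.6 against 232.0 (log2 -0.94, and 1.31-fold lower by the deposited signals). The alcohol dehydrogenase genes Adh5 and Adh1 were at -0.53 and -0.49.

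Only 3 of 8 genes of the aryl hydrocarbon receptor axis were detected. Cyp1b1, its induced oxidase, had 265.2 on the array labelled knockout against 344.6 on the control array (log2 -0.74, and 1.30-fold lower by the deposited signals), and the receptor's partner gene Arnt was at -0.50. Ahr itself was not detected. Among 23 genes of retinoid handling, 15 were detected with a median of 0.06. Lrat, which stores retinol as an ester, was detected on the array labelled knockout alone (303.1 against 158.5, at least 3.33-fold higher, and 1.91-fold by the deposited signals). Rdh16, a retinol dehydrogenase, was at -0.69 (1.22-fold lower by the deposited signals), the retinoic acid hydroxylase gene Cyp26b1 at -0.46 and Dgat1 at 0.39. In the vitamin D receptor axis 6 of 8 genes were detected and 0 reached 1.5-fold, including Cyp24a1, the enzyme that degrades the hormone and a known target of the receptor (194.1 against 178.7, log2 0.29).

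**Figure D4:**
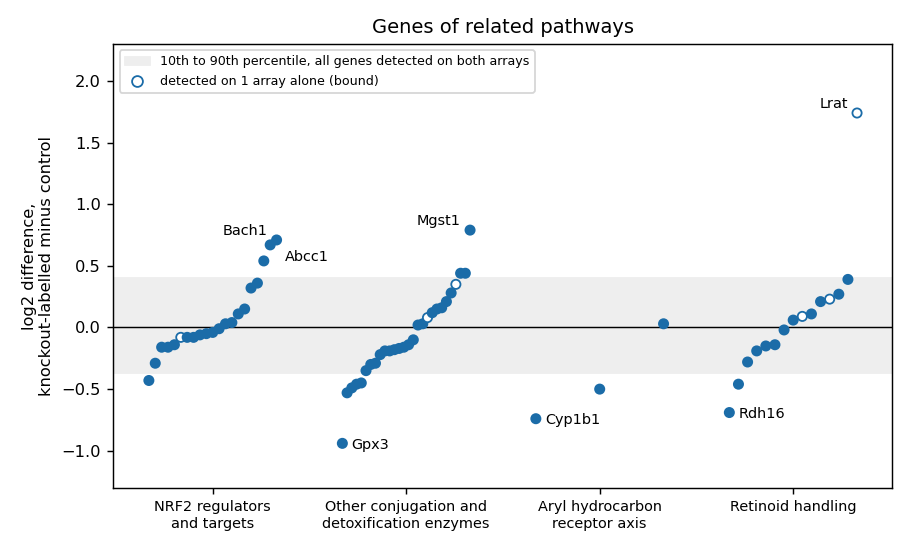
Log2 difference (array labelled knockout minus control) of the detected genes in 4 related pathway lists. Filled points were detected on both arrays, open points are bounds for genes detected on 1 array, and the grey band spans the 10th to 90th percentile of all genes detected on both arrays. Lrat, Mgst1, Bach1 and Abcc1 lie above 1.5-fold and Gpx3, Cyp1b1 and Rdh16 below it.

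Markers of some other cell types and layers also differed between the pools. These lists were chosen with earlier results of these data known, so their counts are not independent support for a difference. Among all 9540 detected genes, 1.28% were at least 2-fold higher and 1.11% at least 2-fold lower. On the array labelled knockout, 7 of 12 granular and cornified layer genes were at least 2-fold higher and 0 at least 2-fold lower. Those 7 were Lce1d, Lce1f, Lce1i, Sprr2d, Sprr4, Hrnr and Tgm3. The rest were within 1.5-fold: Flg2 (log2 0.12), Sprr1b (0.26), Lor (-0.01), Ivl (-0.13) and Krt2 (-0.51). The summed signal of all 12 was 56190.6 against 46886.6 on the control array. All 5 detected Langerhans cell genes were at least 1.5-fold higher, 2 of them at least 2-fold, with sums of 7712.8 and 4437.4. Of 10 sebaceous gland genes 4 were detected and 2 were at least 1.5-fold higher, with sums of 1134.2 and 810.4. Differences of 2-fold or more to lower values were seen in 5 of 7 hair shaft or inner root sheath genes (sums 5439.6 and 6691.3) and 4 of 7 genes of the bulge and hair germ (sums 18875.4 and 24443.2). Melanocyte genes had 2 of 7 at least 2-fold lower (sums 756.2 and 1533.0), with Tyr and Mitf not detected on either array. Of 5 detected dermal fibroblast genes 3 were at least 2-fold lower and 1 higher (sums 5960.5 and 4305.7, or 1037.7 and 1795.5 without Mmp2, the higher one). Sums weigh the brightest probes most. Without the brightest gene of the list (array labelled knockout first) they were 28824.3 and 19319.0 for the granular and cornified layer. For the hair shaft or inner root sheath they were 1077.8 and 2072.7, and for the bulge and hair germ 1652.7 and 2401.6. They were 4369.0 and 2477.5 for Langerhans cells, 655.2 and 487.1 for the sebaceous gland, and 573.8 and 913.5 for melanocytes. By the deposited signals, fewer genes passed 2-fold: 6 granular and cornified layer genes were higher, and 1 gene each of the hair shaft, bulge and melanocyte lists and 0 of the fibroblast list were lower. There 0 Langerhans cell and 0 sebaceous gland genes passed 2-fold, and 3 and 1 of them were at least 1.5-fold higher. Other cell types differed less. After background removal, 0 of 3 detected genes each of the endothelial, adipocyte and skeletal muscle lists reached 1.5-fold. Of 4 detected T cell genes 1 was at least 1.5-fold lower, and of 3 macrophage and neutrophil genes 1 was higher. In pooled cells, a change in the number of cells of a type and a change in RNA per cell cannot be told apart, and the part of these markers in the enzyme differences was not tested.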

How the data were processed

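RNA of skin keratinocytes was hybridised to 2 bead arrays, 1 per group. The deposited non-normalized intensities are probe signals on a linear scale, and GenomeStudio 2011.1 is named in the submitters' processing notes. The deposited normalized intensities share their sorted values between arrays to within 0.3 units, by a method that the sources used here leave out. The values of the series' own table were the same. Detection p-values, named per the file headers, were not in the row order of the signals (Spearman's rho between them was -0.00727 on the array labelled knockout and -0.00526 on the control array), so they were reassigned within each array by signal rank. A probe was detected below 0.05. Of 1149 olfactory receptor probes, whose transcripts epidermis should lack, 2.00% were then detected on the array labelled knockout and 2.09% on the control array. In all, 47.3% of probes were detected on the array labelled knockout and 46.7% on the control array.

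From the non-normalized intensities, limma 3.58.1 in R 4.3.3 removed background (normexp, offset 16), and values were put on a log2 scale and quantile normalized. The method was checked on simulated data. A gene detected on 1 array has a bound, the bright value over the higher of its dim value and the lowest detected value there. No test was made, and the number of arrays limits the precision. Symbols were updated through GRCm38.p6 (25376 of 25697 probes matched), and promoters are from RefSeq, same build.

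Members were set by symbol. Every detected member is named, with full values for the 4 largest differences and the 4 brightest probes of each class and for all past 1.5-fold, plus 4 genes per pathway list. The members, lists and rules were chosen with earlier results of these data known. Alternatives were the deposited normalized values, no background correction, an offset of 50, median scaling, other detection filters and the mean over probes.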

Additional observations from a re-analysis of the deposited data

How the results depend on the processing

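The count of members at least 2-fold higher was 2 and became 1 with an offset of 50, with no background removed and in the values as deposited after normalization, where Akr1c18 alone remained. The count at least 1.5-fold higher was 4 and became 2, 1 and 1 under these settings. It was 3 with median scaling and under stricter detection. It was 5 with no detection filter and with the mean over detected probes, which do not use bounds. The count at least 1.5-fold lower was 1 and became 0 in the deposited normalized values and 2 both with no detection filter and with the mean over detected probes. Sult1a1 had a log2 difference of 1.29, against 0.48 with no background removed and 0.58 in the values as deposited. By construction, values as deposited and values with no background removed keep background in the signal, which shrinks ratios. The offset of 50 adds a larger constant after background removal, which also shrinks ratios. The lower member lost in the deposited values was Gsta1 (log2 -0.53). The lower member gained was Aldh1a1 (log2 -0.72) with no detection filter. With the mean over detected probes it was Aldh3b1, by its probe detected on the control array alone (log2 -0.91). Of 44 detected members 41 kept their sign under every one of the 8 alternatives that gave them a value (345 values in all, since Akr1c19, Aldh1a2, Sult4a1 and Ugt3a1 drop out under stricter detection), and the exceptions were Akr1e1 (-0.02 with median scaling), Gstm1 (0.01 with the mean over probes) and Gstm6 (0.00 with the mean over probes). GST genes were lower in 14 of 18 under 7 of the alternatives and in 12 of 18 with the mean over probes, where the class median was -0.11. Settings that changed only the detection filter leave each gene's value as it was. They could therefore alter neither a sign nor the count over these 18 GST genes. The mean over probes could alter only genes with several detected probes. No paired analysis was possible because each group has 1 array. Results rest on 1 pool per group, so mouse-to-mouse spread is unknown.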
